A study of Mus musculus with 15 samples.

Results

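The core circadian clock genes were followed in single livers of non-pregnant and pregnant mice that carried a control virus or a virus expressing the cell cycle inhibitor p21. They comprise 10 genes taken by name from the count table, namely Arntl, Npas2, Clock, Per1, Per2, Per3, Cry1, Cry2, Nr1d1 and Nr1d2. They are 10 of the 21702 protein-coding genes in the table, and all 10 were among the 12172 genes with enough counts to be tested. In all 9 comparisons 0 of the 10 passed the test over all genes, where 0% to 9.27% of all genes did. Most of the 10 differed widely between livers of the same group.

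RNA was sequenced from whole-liver pieces of 15 wild-type C57BL/6 females (C57BL/6N in the study’s methods), 3 in each of 5 groups. All mice received adeno-associated virus serotype 8 (AAV8) through the tail vein, so that the control livers also carry viral vector. AAV8-null mice were non-pregnant (NP) or at 8 or 16 days post-coitum (8 dpc, 16 dpc), and AAV8-p21 mice, injected before mating, were at 8 dpc or 16 dpc. No NP group with AAV8-p21 was analysed here. In AAV8-p21 the thyroxine-binding globulin promoter, which is active in hepatocytes, drives a mouse p21 cDNA, and other liver cells are not expected to express it. Neither the time of day at which the livers were taken nor their feeding state is stated in the labels or methods, and exact ages are not given per mouse. Livers of NP, 8 dpc and AAV8-null 16 dpc mice are numbered 1 to 3 as in the labels, and those of the AAV8-p21 16 dpc group are called a, b and c, because their column numbers do not all match the labels.

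Each library held 12280709 to 17615185 counts. Levels are given as CPM, the standard depth-scaled count, with library sizes corrected by the trimmed mean of M values (TMM). Albumin took 20.5% to 27.8% of counts in the 6 livers at 16 dpc and 7.90% to 12.9% in the other 9, and the TMM factors were 0.682 to 0.839 and 1.10 to 1.25 in the same sets. Cdkn1a, the gene for p21, was at 347 to 648 CPM in AAV8-p21 livers at 8 dpc and 815 to 1664 CPM at 16 dpc, against 3.29 to 127 CPM in the 9 AAV8-null livers. In bulk liver, fewer cells of a type and less RNA per cell cannot be told apart.

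The clock is a transcriptional feedback loop that runs in nearly every cell. The proteins of Arntl (BMAL1) and Clock, or its relative Npas2, pair and bind E-box elements, and so switch on the Per and Cry genes, whose proteins accumulate and block that pair. The same pair drives Nr1d1 and Nr1d2 (REV-ERBα and REV-ERBβ), which compete with ROR receptors at ROR elements (RORE) and repress Arntl and Npas2. In liver the transcripts of Arntl and Npas2 thus peak at a different time of day from those of Nr1d1, Nr1d2 and the Per genes. Feeding shifts the phase of these transcripts. Glucocorticoids act directly on Per1.

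Regulatory letters of this loop can be read in the promoters of several of these genes. Windows from 250 bases before to 50 bases after each transcription start were taken from RefSeq (GRCm38.p6), and both strands were searched for the E-box CACGTG, the E′-box CACGTT, the D-box TTANGTAA, which factors such as DBP bind, and the core of the RORE, TAGGTNA. RefSeq windows matched 9 of the 10 genes, all but Per2, through 13 windows. Of all 32851 windows, 7.15% held an E-box, 4.68% an E′-box, 2.32% a D-box, 8.29% a RORE core and 20.3% at least 1 of the 4. Of the 13 windows, which overlap for Arntl, 7 had at least 1 of them, from 6 of the 9 genes, and the windows of Npas2, Clock and Nr1d2 had none of these letters. The stretches below are shown because they hold the letters through which the 2 arms of the loop are known to be wired, with each motif in capitals. AACGTG is the E′-box read from the other strand.
Arntl, RORE core, chr7:113207495-113207521, + strand: ggtcggaaagTAGGTTAgtggtgcgac
Arntl, RORE core, chr7:113207531-113207557, + strand: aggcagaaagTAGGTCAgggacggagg
Per1, E-box, chr11:69098753-69098812, + strand: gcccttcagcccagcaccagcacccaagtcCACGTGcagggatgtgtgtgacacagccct
Cry1, E′-box and E-box, chr10:85185094-85185153, − strand: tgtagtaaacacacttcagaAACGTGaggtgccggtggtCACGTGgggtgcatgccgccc
Cry2, E′-box, chr2:92434206-92434265, − strand: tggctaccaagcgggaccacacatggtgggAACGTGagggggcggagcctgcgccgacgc
Nr1d1, E′-box, chr11:98775376-98775435, − strand: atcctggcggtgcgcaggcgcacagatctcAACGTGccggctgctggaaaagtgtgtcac
Per3, 2 D-boxes, chr4:151044801-151044880, − strand: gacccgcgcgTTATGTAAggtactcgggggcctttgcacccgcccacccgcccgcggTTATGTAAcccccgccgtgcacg

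The pair of RORE cores of Arntl began 6 bases before and 30 bases after 1 of its 2 RefSeq starts, and both stretches lie in an Arntl exon. The E-box of Per1 began 166 bases before 1 of its 2 RefSeq starts, inside the span of the gene given below, and the window of the other start had none. Before the 1 RefSeq start of each other gene, the E′-box and E-box of Cry1 began at 79 and 60 bases, the E′-box of Cry2 at 166 bases, that of Nr1d1 at 28 bases and the D-boxes of Per3 at 205 and 158 bases. These 5 stretches overlap no annotated exon. The matches describe letters only, and binding was not measured.

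The genes lie on 8 chromosomes, with Arntl at chr7:113207465-113314126 (+ strand), Npas2 at chr1:39193731-39363236 (+), Clock at chr5:76209868-76304792 (−), Per1 at chr11:69095217-69109960 (+), Per2 at chr1:91415982-91459324 (−), Per3 at chr4:151003652-151044665 (−), Cry1 at chr10:85131700-85185064 (−), Cry2 at chr2:92403646-92434043 (−), Nr1d1 at chr11:98767932-98775333 (−) and Nr1d2 at chr14:18204054-18239127 (−) in the GENCODE M21 annotation of GRCm38. Nr1d1 overlaps Thra on the opposite strand, and Per3 overlaps Camta1 on the same strand. Whether the counting used the strand is not stated, so the counts of Nr1d1 are uncertain in that respect. The overlap of Per3 with Camta1 is one that a strand setting cannot separate. Per kilobase of exon, the mean level over the 15 livers was 13.9 CPM for Nr1d1 and 9.23 CPM for Nr1d2, 4.40 CPM for Per1, 3.76 CPM for Cry2, 2.94 CPM for Cry1 and for Clock, 2.12 CPM for Per2, 1.69 CPM for Arntl, 1.23 CPM for Per3 and 0.781 CPM for Npas2.

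In the activating arm, Arntl was high in some livers and nearly silent in others of the same group. In AAV8-null mice Arntl was at 17.2, 1.71 and 1.40 CPM in NP livers 1 to 3, 24.0, 25.4 and 8.06 CPM at 8 dpc, and 23.3, 10.2 and 19.8 CPM at 16 dpc. AAV8-p21 mice had 31.4, 21.4 and 2.45 CPM of Arntl at 8 dpc, with 0.511, 0.582 and 2.91 CPM in livers a, b and c at 16 dpc. Thus 6 livers lay at or below 2.91 CPM (2 NP livers, 1 AAV8-p21 liver at 8 dpc and all 3 AAV8-p21 livers at 16 dpc) and the other 9 at or above 8.06 CPM. The AAV8-p21 livers at 16 dpc overlapped the NP livers and not the AAV8-null livers at 16 dpc.

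Npas2, whose product can stand in for CLOCK, divided the livers more sharply. In AAV8-null mice Npas2 was at 6.03, 0.122 and 0.0699 CPM in NP livers, 7.57, 7.03 and 0.416 CPM at 8 dpc and 7.75, 0 and 2.76 CPM at 16 dpc. AAV8-p21 mice had 14.6, 8.90 and 0.280 CPM of Npas2 at 8 dpc, with 0, 0.218 and 0.437 CPM at 16 dpc. The low values rest on very few counts, with 0 to 8 counts in each of the 8 livers below 0.5 CPM. Every group held at least 1 such liver.

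Clock, the partner of BMAL1 whose transcript cycles only weakly in liver, varied least of the activators. In AAV8-null mice Clock was at 23.2, 35.8 and 36.7 CPM in NP livers, 46.9, 43.7 and 69.5 CPM at 8 dpc and 50.5, 38.7 and 60.3 CPM at 16 dpc. The AAV8-p21 livers had 51.3, 56.3 and 18.9 CPM at 8 dpc and then 17.3, 17.4 and 37.9 CPM at 16 dpc. Its highest and lowest livers differed 4.02-fold, against 61.5-fold for Arntl. AAV8-null livers of both pregnant stages all exceeded the 3 NP livers.

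**Figure D1:**
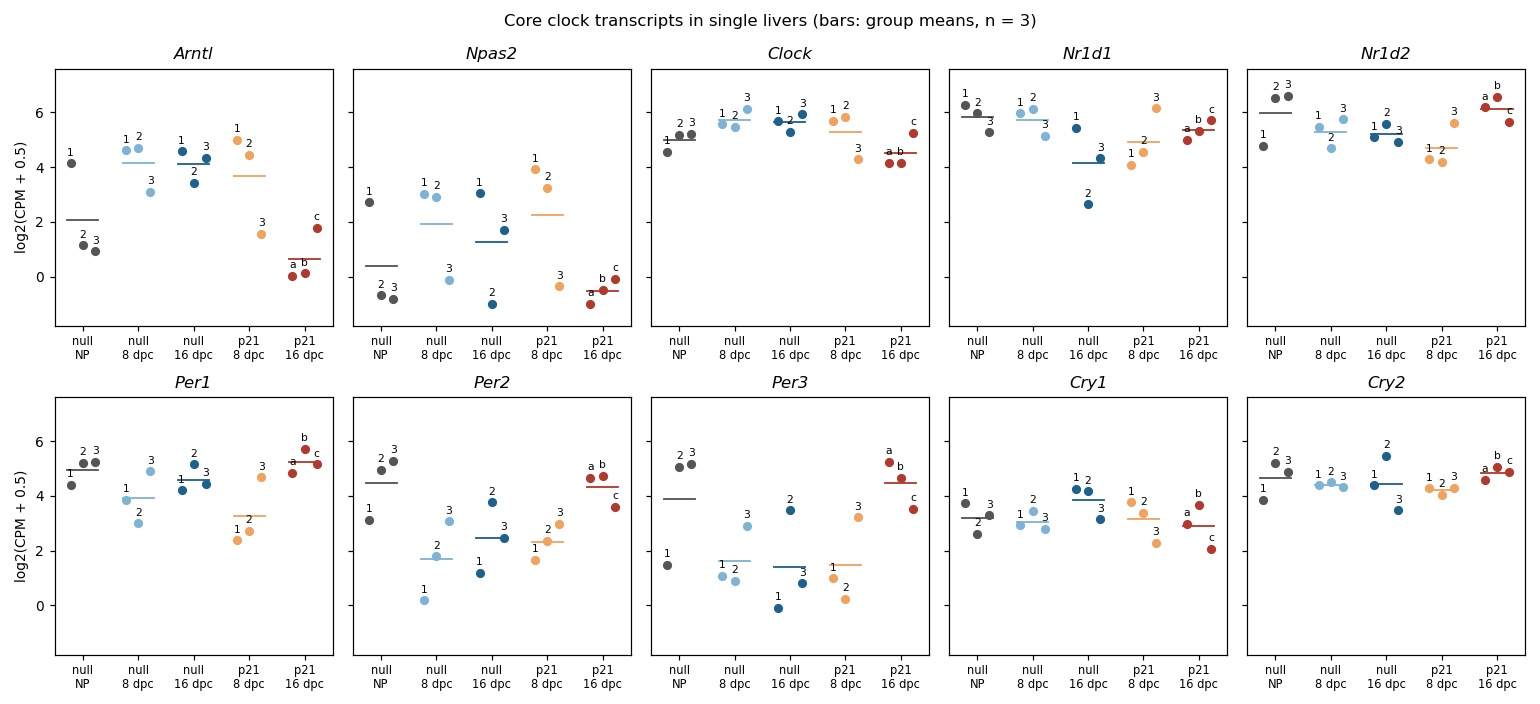
Each panel shows 1 clock gene, with log2(CPM + 0.5) on the y axis and the 5 groups on the x axis. Points are single livers labelled with their number or letter and bars are group means (n = 3). Arntl in AAV8-p21 livers at 16 dpc reached at most 2.91 CPM, below all AAV8-null livers at 16 dpc, while NP livers and AAV8-p21 livers at 8 dpc each held high and low livers.

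Among the repressors of Arntl, the REV-ERB pair did not behave alike. Nr1d2 (REV-ERBβ) was at 27.1, 91.5 and 96.4 CPM in NP livers, 43.8, 25.1 and 53.0 CPM in AAV8-null livers at 8 dpc and 33.6, 47.4 and 30.0 CPM in those at 16 dpc. Levels were 18.9, 17.9 and 48.8 CPM in AAV8-p21 livers at 8 dpc and 72.1, 93.8 and 49.5 CPM at 16 dpc. Nr1d2 was lowest in AAV8-p21 livers 1 and 2 at 8 dpc, which had Arntl at or above 21.4 CPM, and highest in livers with little Arntl.

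Nr1d1 (REV-ERBα) was at 76.9, 61.8 and 38.2 CPM in NP livers, 61.7, 69.3 and 34.6 CPM in AAV8-null livers at 8 dpc and 43.1, 5.75 and 19.5 CPM in those at 16 dpc. The AAV8-p21 livers had 16.4, 23.1 and 70.5 CPM at 8 dpc and then 31.5, 39.6 and 51.7 CPM at 16 dpc. Its highest level, in NP liver 1, came with high Arntl, and its lowest, in AAV8-null liver 2 at 16 dpc, came with 10.2 CPM of Arntl and no counts of Npas2. That liver also held the highest Cry2.

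Of the Per genes, whose products form the negative limb with CRY, Per3 ranged furthest. It was at 2.29, 33.0 and 35.5 CPM in NP livers, 1.63, 1.37 and 7.02 CPM in AAV8-null livers at 8 dpc and 0.446, 10.7 and 1.25 CPM in those at 16 dpc. The AAV8-p21 livers had 1.48, 0.685 and 8.83 CPM at 8 dpc and then 37.7, 24.9 and 11.1 CPM at 16 dpc. The highest and lowest livers differed 84.7-fold, and the 4 livers with the most Per3 were the 4 with the least Arntl.

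Per2 was at 8.31, 30.8 and 38.2 CPM in NP livers, 0.640, 2.98 and 7.96 CPM in AAV8-null livers at 8 dpc and 1.78, 13.1 and 5.07 CPM in those at 16 dpc. The AAV8-p21 livers had 2.67, 4.68 and 7.35 CPM at 8 dpc and then 24.8, 26.1 and 11.7 CPM at 16 dpc. All 3 NP livers exceeded all 3 AAV8-null livers at 8 dpc, and the AAV8-p21 livers at 16 dpc exceeded those at 8 dpc. Per1, which glucocorticoids also induce, was at 20.6, 36.4 and 37.3 CPM in NP livers, 14.03, 7.503 and 29.3 CPM in AAV8-null livers at 8 dpc and 18.01, 35.2 and 21.2 CPM in those at 16 dpc. The AAV8-p21 livers had 4.69, 6.16 and 25.1 CPM at 8 dpc and then 28.4, 52.4 and 35.3 CPM at 16 dpc, with no overlap between these stages.

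The Cry genes, whose products repress BMAL1 and its partner, varied least beside Clock. Cry1 was at 12.8, 5.60 and 9.30 CPM in NP livers, 7.10, 10.5 and 6.45 CPM in AAV8-null livers at 8 dpc and 18.6, 17.6 and 8.37 CPM in those at 16 dpc, with 13.2, 9.99 and 4.41 CPM in AAV8-p21 livers at 8 dpc and 7.41, 12.2 and 3.71 CPM at 16 dpc. Cry2 was at 13.99, 36.6 and 29.1 CPM in NP livers, 20.4, 22.03 and 19.4 CPM in AAV8-null livers at 8 dpc and 20.5, 43.6 and 10.6 CPM in those at 16 dpc, with 18.9, 16.1 and 19.2 CPM in AAV8-p21 livers at 8 dpc and 23.8, 33.2 and 29.2 CPM at 16 dpc. Extremes differed 5.02-fold for Cry1 and 4.11-fold for Cry2.

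With the groups put in order of their mean for each gene, livers of neighbouring groups overlapped in all but 1 of 40 pairs. The exception was Cry2, for which AAV8-p21 livers at 8 dpc (18.05 CPM ± 1.70, SD, n = 3) all lay below AAV8-null livers at 8 dpc (20.6 CPM ± 1.33, SD, n = 3), by a small margin. Mean Arntl was ordered from AAV8-null 8 dpc (19.1 CPM ± 9.62) through AAV8-p21 8 dpc (18.4 CPM ± 14.7), AAV8-null 16 dpc (17.8 CPM ± 6.73), NP (6.76 CPM ± 9.02) to AAV8-p21 16 dpc (1.34 CPM ± 1.37, SD, n = 3 each). Mean Per3 had the reverse order, from AAV8-p21 16 dpc (24.6 CPM) and NP (23.6 CPM) to AAV8-null 16 dpc (4.12 CPM), AAV8-p21 8 dpc (3.66 CPM) and AAV8-null 8 dpc (3.34 CPM).

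To place each liver on 1 scale, a limb difference was computed from log2(CPM + 0.5) by subtracting the mean of Nr1d1, Nr1d2 and Per3 from the mean of the activators Arntl, Npas2 and Clock. It was highest in AAV8-p21 livers 1 and 2 at 8 dpc, at 1.75 and 1.504 on the log2 scale, whereas liver 3 of the same group stood at -3.17. In AAV8-null mice it was -0.37, -3.97 and -3.90 in NP livers, 0.23, 0.45 and -1.56 at 8 dpc and 0.94, -1.33 and 0.64 at 16 dpc. The AAV8-p21 livers at 16 dpc stood at -4.42, -4.25 and -2.65. Thus in each of the 5 groups 1 liver lay at least 1.60 from both of its group mates on this scale, while those 2 lay within 0.305 of each other, and AAV8-p21 16 dpc was the group in which all 3 livers lay below -2.

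**Figure D2:**
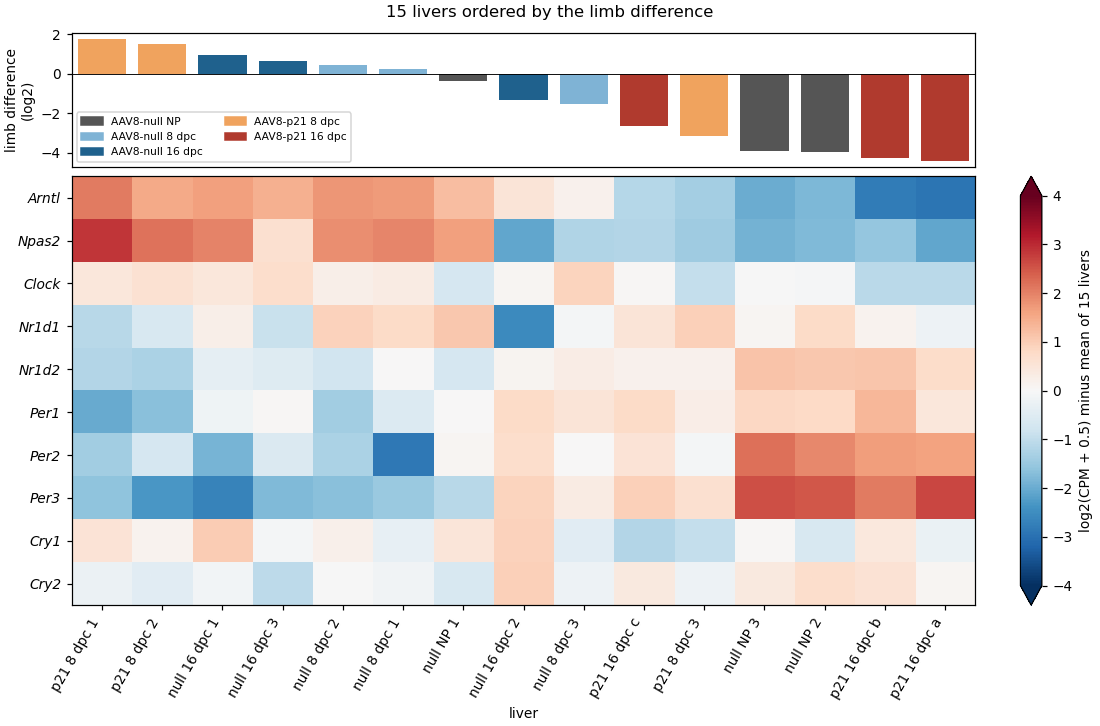
The bars show the limb difference of each of the 15 livers (log2 scale, coloured by group), sorted from high to low, and the map below shows each gene's log2(CPM + 0.5) minus its mean over the 15 livers, red for higher and blue for lower. Arntl and Npas2 run from red to blue from left to right and Per2, Per3 and Nr1d2 run the other way, while Nr1d1 follows neither; the groups are mixed along the order from 1.75 to -4.42.

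In each of the 5 groups the pair of livers closest on this scale was also the closest pair in the rest of the transcriptome, narrowly so in AAV8-null livers at 16 dpc. Over 6935 other genes with a mean of at least 10 CPM, NP livers 2 and 3 differed by a root mean square of 0.269 on the log2 scale, against 0.700 and 0.712 from NP liver 1. The closest pair was at 0.325 among AAV8-null livers at 8 dpc (1 and 2), 0.326 among AAV8-p21 livers at 8 dpc (1 and 2) and 0.327 among those at 16 dpc (a and b), and the other pairs of these 3 groups were at 0.532 to 0.680. In the AAV8-null group at 16 dpc the 3 pairs lay at 0.522 to 0.607. What else the livers that lay close shared, such as the hour of dissection, is not stated in the labels or methods.

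Over the 15 livers, Arntl moved with Npas2 and against most of the negative limb. Pearson's r of log2(CPM + 0.5) was 0.87 with Npas2 (Spearman's rho 0.86, permutation test, adjusted p = 4.5e-04 over 9 relations, raw p = 2e-04), -0.94 with Per3 (rho -0.87, permutation test, adjusted p = 9e-05, raw p = 1e-05, the smallest that 100000 permutations can give), -0.88 with Nr1d2 (rho -0.88, adjusted p = 1.35e-04 by permutation) and -0.86 with Per2 (rho -0.89, adjusted p = 1.8e-04 by permutation). With Per1 r was -0.76 (rho -0.86, permutation adjusted p = 0.00167), and these 5 relations also passed on deviations from the group means, where r was 0.91 for Npas2, -0.90 for Per3, -0.94 for Nr1d2, -0.77 for Per2 and -0.82 for Per1. Without the 2 livers farthest from the median of Arntl, which are AAV8-p21 livers a and b at 16 dpc, r was 0.87, -0.93, -0.86, -0.83 and -0.76 for the same 5 genes.

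For Clock r was 0.70 (rho 0.70, permutation adjusted p = 0.00732), and the relation did not hold without those 2 livers, where r was 0.47 (permutation adjusted p = 0.115), or on deviations from the group means of all 15, where it was 0.37 (exact adjusted p = 0.413). For Cry2 r was -0.56 (rho -0.51, permutation adjusted p = 0.0384), with -0.55 without the 2 livers (permutation adjusted p = 0.0706) and -0.46 within groups (exact adjusted p = 0.134). For Cry1 r was 0.43 (rho 0.42, permutation adjusted p = 0.125), and for Nr1d1 it was -0.18 (rho -0.06, permutation adjusted p = 0.543). Because Arntl left a gap between 2.91 and 8.06 CPM, r was also taken on each side of it, a split chosen after the values were seen. In the 9 livers above the gap r was 0.93 for Npas2, -0.84 for Per3, -0.80 for Per1, -0.73 for Per2 and -0.72 for Nr1d2 (exact adjusted p = 0.0225 to 0.0498). In the 6 below it was 0.69, -0.72, -0.36, -0.61 and -0.63 (exact adjusted p = 0.263 to 0.569), which did not pass. Because the split is on Arntl itself and the sides hold 9 and 6 livers, these p-values are descriptive and do not compare the sides.

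**Figure D3:**
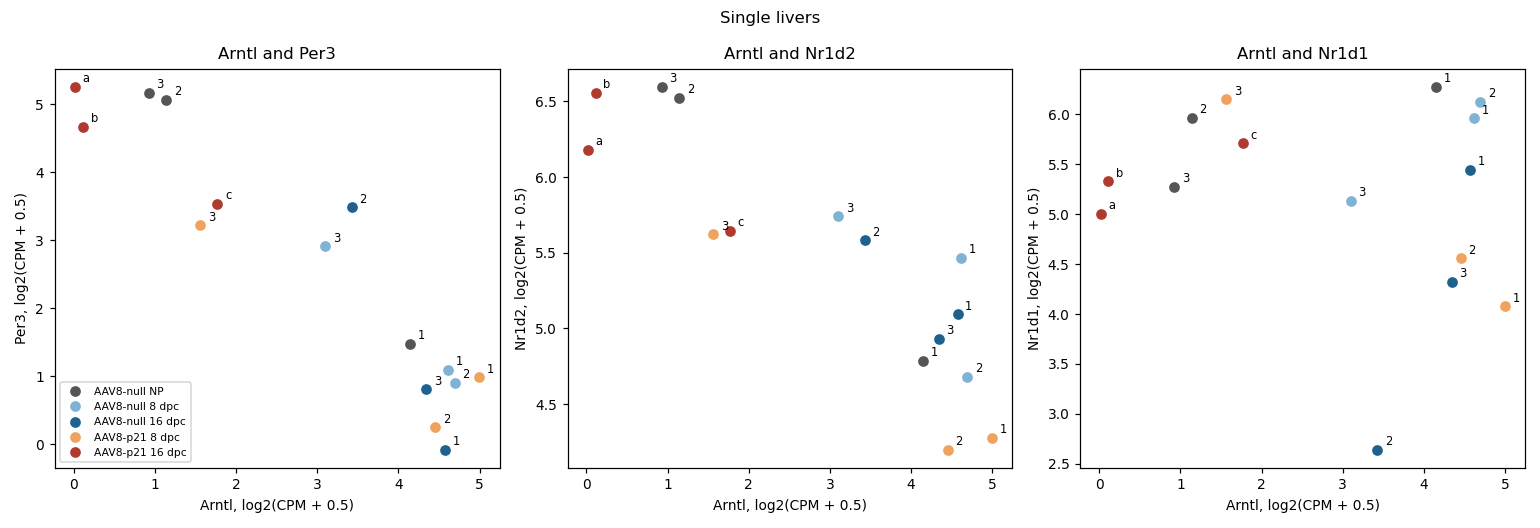
Each point is 1 liver, labelled with its number or letter and coloured by group, with log2(CPM + 0.5) of Arntl on the x axis and of Per3, Nr1d2 or Nr1d1 on the y axis. Per3 (r = -0.94) and Nr1d2 (r = -0.88) decline from left to right, and Nr1d1 (r = -0.18) does not, with AAV8-null liver 2 at 16 dpc alone at the bottom.

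The first comparison asks whether p21 in hepatocytes was accompanied by a different clock state in late pregnancy. At 16 dpc 0 of 10 clock genes passed (edgeR quasi-likelihood test, Benjamini-Hochberg adjusted p under 0.05 over 12172 genes), where 0.0739% of all genes did, and 3 had an unadjusted p under 0.05, where 9.77% of all genes did. The count of 3 was 1 without AAV8-p21 liver a, 5 without liver c, 6 without AAV8-null liver 2 and by DESeq2 on the same libraries, and 7 with no filter on low counts. Livers of the 2 groups did not overlap for 4 of 10 genes, against 13.7% of all genes, 2 of them lower in AAV8-p21 livers (7.02% of all genes) and 2 higher (6.65%). Arntl was lower in the AAV8-p21 group by a log2 fold change of -3.70 (SE 1.08, adjusted p = 0.244 by edgeR), and Clock by -1.04 (SE 0.39, adjusted p = 0.397 by edgeR). Per3 was higher by 2.56 (SE 1.1, adjusted p = 0.501 by edgeR), or by 4.84 without AAV8-null liver 2, and Nr1d2 by 0.96 (SE 0.47, adjusted p = 0.534 by edgeR). For each of these 4 the exact two-sided permutation test gave p = 0.1, the smallest that 3 against 3 livers allow. DESeq2 on the same 15 libraries also called 0 of 10, but on these 2 groups alone it called Arntl (adjusted p = 2.37e-07). Because the hour of dissection is not stated, a difference in sampling time between the groups cannot be told apart from one between the viruses. The median size of the log2 fold change was 0.999 over the 10 genes and 0.25 over all genes tested.

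At 8 dpc the same comparison showed 0 of 10 clock genes passed (0.0246% of all genes did) and 0 with an unadjusted p under 0.05 (5.18% of all genes), or 3 without AAV8-p21 liver 3. Only Cry2 did not overlap, against 10% of all genes, at a log2 fold change of -0.19 (SE 0.40, edgeR adjusted p = 1). The median size was 0.33 over the clock genes and 0.19 over all genes. The difference between the 2 stages in the effect of p21, tested as an interaction, also had 0 of 10 passing, with 0% of all genes called. An unadjusted p under 0.05 was reached by Arntl, at -3.66 (SE 1.38, edgeR adjusted p = 1), and Nr1d2, at 1.47 (SE 0.67, edgeR adjusted p = 1), and by 3.09% of all genes. With a library left out the count of 2 ran from 0, without AAV8-p21 liver 1 at 8 dpc, to 8, without liver 3 of that group, and was 5 without AAV8-null liver 2 at 16 dpc.

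Within AAV8-p21 mice, 16 dpc against 8 dpc had 0 of 10 clock genes passing, against 3.32% of all genes, while 6 had an unadjusted p under 0.05, against 16.4%, or 3 without AAV8-p21 liver 1 or 2 at 8 dpc. Arntl was at -3.76 (SE 1.07, edgeR adjusted p = 0.0722) and Npas2 at -5.08 (SE 1.86, edgeR adjusted p = 0.169), both overlapping between the stages through liver 3 at 8 dpc. Livers did not overlap for 5 of 10 genes, against 22.9% of all genes, and all 5 were higher at 16 dpc, against 11.5%. They were Per3 (log2 fold change 2.78, SE 1.1), Per2 (2.101, SE 0.78), Per1 (1.70, SE 0.58), Nr1d2 (1.34, SE 0.48) and Cry2 (0.67, SE 0.40), with adjusted p from 0.143 to 0.437 by edgeR, and Per3 was at 4.49 without liver 3 at 8 dpc. DESeq2 called 2 of the 10 on the same 15 libraries (Arntl and Per1) and 5 on these 2 groups alone. Without AAV8-p21 liver 3 at 8 dpc edgeR called 3, which were Arntl (-4.26, adjusted p = 0.0323), Per1 (2.85, adjusted p = 0.0141) and Nr1d2 (1.98, adjusted p = 0.0435). The 3.32% of all genes holds for edgeR on all livers and not for these other fits.

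In AAV8-null mice, 16 dpc against NP had 0 of 10 passing, against 6.52% of all genes, and 3 at an unadjusted p under 0.05, against 21.2%. With a library left out this count was 0 without NP liver 2 or AAV8-null liver 3, 1 without NP liver 3 or AAV8-null liver 1, and 5 without NP liver 1. In the fit of all livers these were Per2 (log2 fold change -1.95, SE 0.78, edgeR adjusted p = 0.163), Per3 (-2.50, SE 1.1, edgeR adjusted p = 0.223) and Nr1d1 (-1.37, SE 0.61, edgeR adjusted p = 0.212). Without AAV8-null liver 2 at 16 dpc Per3 was at -4.79 and Nr1d1 at -0.91, and without liver 1 Nr1d1 was at -2.23. Clock, at 0.64 (SE 0.39, edgeR adjusted p = 0.369), was the 1 gene of 10 whose livers did not overlap, against 24.6% of all genes. On these 2 groups alone DESeq2 called Per2 (adjusted p = 0.0432). Without NP liver 1 Arntl passed, at a log2 fold change of 3.50 (edgeR adjusted p = 0.0488).

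At 8 dpc against NP, again 0 of 10 passed, and 0% of all genes did; 2 had an unadjusted p under 0.05, against 6.6% of all genes, with 5 without NP liver 1 and 1 without NP liver 2 or 3 or AAV8-null liver 1 or 2. Per2 was at -2.73 (SE 0.80, edgeR adjusted p = 0.394) and Per3 at -2.80 (SE 1.1, edgeR adjusted p = 0.606). Livers did not overlap for Per2 and Clock (0.74, SE 0.39, edgeR adjusted p = 0.849), against 10.2% of all genes. At 16 dpc against 8 dpc, 0 of 10 passed (6.87% of all genes did), 0 had an unadjusted p under 0.05 (22.7%; 2 without AAV8-null liver 3 at 8 dpc), and 0 were without overlap (25.4%). The NP group is shared by the first 2 of these comparisons.

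AAV8-p21 livers at 16 dpc were also set against NP livers, a comparison that differs in both virus and pregnancy. Here 0 of 10 passed, against 3.81% of all genes, and only Arntl had an unadjusted p under 0.05 (log2 fold change -2.31, SE 1.06, edgeR adjusted p = 0.306), against 16% of all genes. Without NP liver 1 this difference was -0.20, and without AAV8-p21 liver c it was -3.60. An unadjusted p under 0.05 was reached by 0 genes without NP liver 1 or AAV8-p21 liver a or b, and by 2 without liver c. No clock gene was without overlap, against 20.2% of all genes, and the median size of 0.30 was near the 0.27 of all genes. A test for any difference among the 5 groups called 0 of 10 and 9.27% of all genes. Per2 came closest (edgeR adjusted p = 0.0641), passing without the filter on low counts (0.0413) and in the likelihood ratio test of DESeq2 (adjusted p = 0.0237), and 4 genes had an unadjusted p under 0.05, against 24.7% of all genes, with 1 (without AAV8-p21 liver a at 16 dpc) to 7 (without AAV8-p21 liver 3 at 8 dpc) when a library was left out.

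**Figure D4:**
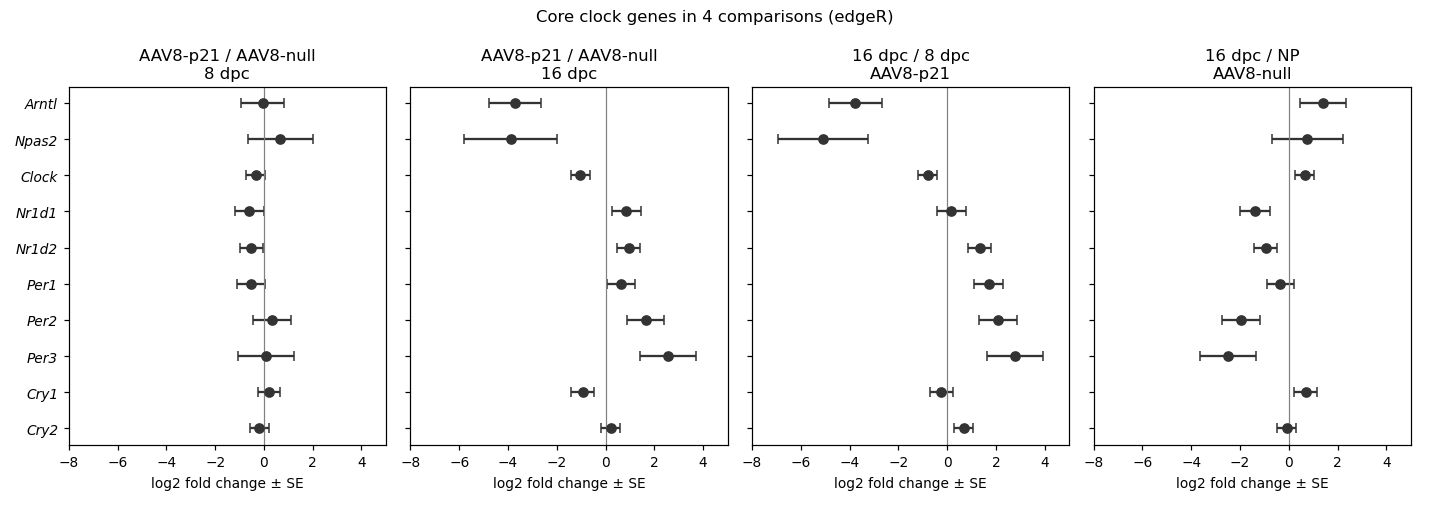
Points are log2 fold changes of the 10 clock genes with their standard errors in 4 comparisons (edgeR, 3 livers a group), named above each panel. AAV8-p21 against AAV8-null at 16 dpc and 16 dpc against 8 dpc in AAV8-p21 livers have Arntl at -3.70 and -3.76 and Per3 at 2.56 and 2.78, with 0 of 10 genes past the threshold in any panel; these 2 panels share the AAV8-p21 livers at 16 dpc.

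The spread within groups was large beside that of other genes. The biological coefficient of variation (BCV), edgeR's estimate of the spread between livers of a group beyond counting error, was 1.30 for Npas2, 0.899 for Per3, 0.769 for Arntl, 0.638 for Per2, 0.503 for Nr1d1 and 0.479 for Per1. It was 0.401 for Nr1d2, 0.391 for Cry1, 0.343 for Cry2 and 0.337 for Clock, against a median of 0.239 over the 12172 genes. All 10 clock genes lay at or above percentile 81.1, and Arntl, Per3 and Npas2 were at percentiles 99.2, 99.7 and 99.98. Differences within groups made up 38.4% of the sum of squares of Arntl and of Per2 over the 15 livers. The share was 44.5% for Per1, 48.0% for Per3, 51.2% for Clock, 52.9% for Nr1d2 and 57.1% for Nr1d1. It was 68.5% for Npas2, 71.9% for Cry1 and 80.9% for Cry2. With 3 livers a group most of the sum lies within groups even where groups do not differ, so a high share is not by itself a wide spread.

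**Figure D5:**
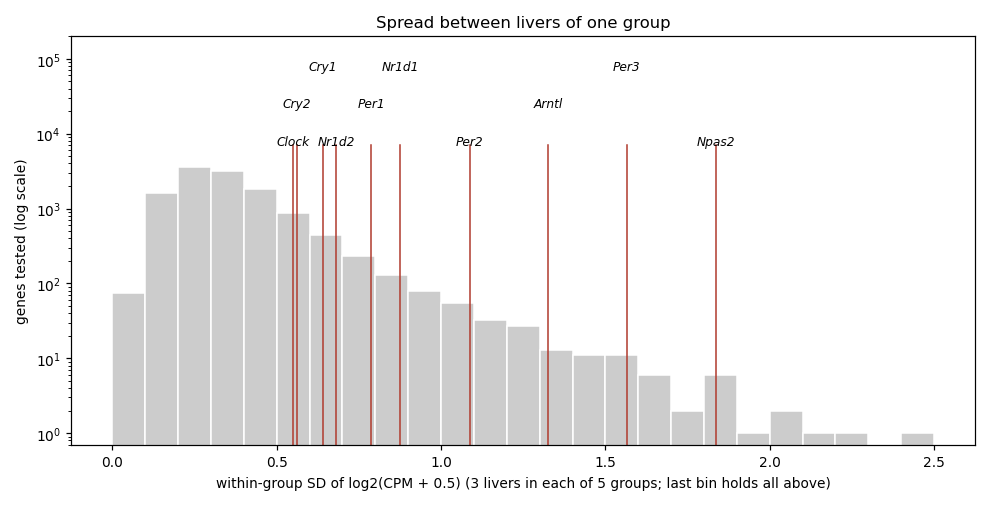
Grey bars count the 12172 genes tested by their standard deviation of log2(CPM + 0.5) between livers of a group (x axis, log2 units; y axis on a log scale), and red lines mark the 10 clock genes. The median gene is at 0.322, Clock at 0.549 and Npas2 at 1.84.

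The wider clock was examined in a list of 25 regulators and output factors, of which 24 were tested (Rorb was not). At 16 dpc 0 of 24 passed for AAV8-p21 against AAV8-null, 4 had an unadjusted p under 0.05 and 9 did not overlap, where 0.0739%, 9.77% and 13.7% of all genes did so, with a median size of the log2 fold change of 0.48 against 0.25 over all genes. Dbp, a factor that binds D-boxes and is itself a direct target of BMAL1, was at 120, 81.0 and 51.8 CPM in AAV8-p21 livers at 16 dpc and 1.69, 11.4 and 1.33 CPM in AAV8-null livers (log2 fold change 4.12, SE 1.39, edgeR adjusted p = 0.329). Dbp reached 86.3 and 58.0 CPM in NP livers 2 and 3 and 61.4 CPM in AAV8-p21 liver 3 at 8 dpc, and lay between 0.642 and 9.10 CPM in the other 6 livers. Nfil3, which competes with DBP at D-boxes, was at 18.6, 30.4 and 9.25 CPM in AAV8-p21 livers at 16 dpc and 50.8, 57.2 and 69.3 CPM in AAV8-null livers (log2 fold change -1.61, SE 0.77, edgeR adjusted p = 0.521). All the livers with Dbp above 50 CPM had Arntl at or below 2.91 CPM.

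Ciart, a repressor of BMAL1 and CLOCK, was at 4.43, 8.43 and 3.64 CPM in AAV8-p21 livers at 16 dpc and 0, 1.25 and 0 CPM in AAV8-null livers (log2 fold change 3.66, SE 1.35, edgeR adjusted p = 0.390), and the single AAV8-null value above 0 is that of liver 2. Bhlhe41, another repressor, was at 2.13, 2.54 and 3.42 CPM against 1.43, 1.42 and 1.33 CPM (0.95, SE 0.66, edgeR adjusted p = 0.663). In AAV8-p21 mice 1 of 24 passed between 16 and 8 dpc, which is near the 3.32% of all genes, and this was Usp2, a clock-controlled deubiquitinase, which rose from 4.34 to 48.7 CPM (log2 fold change 3.51, SE 0.85, edgeR adjusted p = 0.0372), a call lost without liver 1 or 2 at 8 dpc or liver a or b at 16 dpc (adjusted p = 0.0885 to 0.175 by edgeR). In AAV8-null mice Fbxl21, a ligase subunit that acts on CRY, fell from 1.46 to 0.412 CPM between 8 and 16 dpc (-1.82, SE 0.49, edgeR adjusted p = 0.0410), as the 1 of 24 that passed there, against 6.87% of all genes, and did not pass without liver 1 or 2 of either stage (adjusted p = 0.107 to 0.166 by edgeR). By edgeR with all livers kept, 0 of 24 passed in the other 5 comparisons of 2 groups or in the interaction. Their counts with a library left out are not given here. For any difference among the 5 groups 2 of 24 passed, Ciart and Usp2, near the 9.27% of all genes. With a library left out this count ran from 0 (without NP liver 2 or 3, AAV8-null liver 1 or 2 or AAV8-p21 liver 2 at 8 dpc, or AAV8-p21 liver a or b) to 4 (without NP liver 1), and it was 1 without AAV8-null liver 1 or 3 at 16 dpc or AAV8-p21 liver 1 at 8 dpc.

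Among 6951 genes with a mean of at least 10 CPM, counting no member, the 5 most like Arntl over the 15 livers were Lgalsl (r = 0.96), Ddc (0.96), Clpx (0.95), Rfxank (0.93) and Chka (0.92). The 5 with the lowest r were Dbp (-0.96), Tef (-0.91), Pcsk4 (-0.91), Usp2 (-0.90) and Coq10b (-0.87), of which Dbp and Tef are both D-box factors of the PAR bZIP family. On deviations from group means r was between 0.85 and 0.96 for the first 5 and between -0.94 and -0.85 for the others. Nr1d1 had no such close companions, its 5 highest being Cebpa (0.85), Spata2l (0.85), Eif2d (0.82), Phkg2 (0.80) and Pycrl (0.80). These values describe likeness over livers that share groups.

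Other groups of genes that follow time of day, feeding or handling were read beside the clock. Of 10 glucocorticoid targets, Per1 among them, 0 passed between the viruses at either stage, with 4 at an unadjusted p under 0.05 at 16 dpc (9.77% of all genes) and 5 at 8 dpc (5.18%). At 8 dpc all 10 had a negative log2 fold change for AAV8-p21 against AAV8-null, with a median of -1.05, and 4 did not overlap (10% of all genes). Without AAV8-null liver 3, 3 of the 10 were positive. At 16 dpc 7 had a negative log2 fold change, with a median of -0.23 that ran from -0.57 to -0.010 with a library left out. There 4 did not overlap, all lower with AAV8-p21 (7.02% of all genes). Sgk1 was 1 of them, at 168 to 263 CPM in AAV8-null and 33.0 to 82.3 CPM in AAV8-p21 livers. In AAV8-null mice at 16 dpc against NP 4 of 10 passed, against 6.52% of all genes, where Sgk1 (log2 fold change 3.36), Mt2 (3.35) and Mt1 (2.81) rose and Tsc22d3 fell by 2.103 (adjusted p = 6.92e-04 to 0.00895 by edgeR), while Per1 did not pass. In AAV8-p21 mice 3 of 10 passed between 8 and 16 dpc, against 3.32% of all genes, where Fkbp5 (2.38), Sgk1 (1.89) and Zbtb16 (1.86) rose (adjusted p = 9.23e-04 to 0.0497 by edgeR). Fkbp5 passed with any of the 6 livers left out, Sgk1 only without liver a, and Zbtb16 in none of these fits (adjusted p = 0.0524 to 0.172 by edgeR). Of 8 immediate-early genes, 7 were tested and 5 rose at 16 dpc against NP in AAV8-null mice, where 6.52% of all genes passed in either direction, with Btg2 at 2.97 and Egr1 at 2.86, and 3 passed without NP liver 2. Between the viruses 0 of 7 passed at either stage. At 8 dpc 6 of 7 had a negative log2 fold change for AAV8-p21, with a median of -1.04, and 2 did not overlap (10% of all genes). An unadjusted p under 0.05 was reached by 3 (5.18%), or by 1 without liver 1 of either group. At 16 dpc all 7 were negative, or 4 without AAV8-p21 liver a, with a median of -0.35. None had an unadjusted p under 0.05 there (9.77%).

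Feeding-related transcripts also differed between livers. All 8 fed-state genes, such as Fasn and Acaca, were higher on average with AAV8-p21 than with AAV8-null at both stages, with median log2 fold changes of 1.12 at 16 dpc and 1.45 at 8 dpc, but 0 of 8 passed at either (edgeR, with 2 and 5 at an unadjusted p under 0.05, against 9.77% and 5.18% of all genes). Livers did not overlap for 1 of 8 at 16 dpc (13.7% of all genes) and 6 of 8 at 8 dpc (10%), all higher with AAV8-p21. Of 10 fasting genes, 0 passed in these comparisons (2 at 16 dpc and 0 at 8 dpc had an unadjusted p under 0.05). At 16 dpc 2 did not overlap, both lower with AAV8-p21 (7.02% of all genes), and at 8 dpc 1, which was higher. Pdk4 rose in AAV8-null mice at 16 dpc against NP (3.78, edgeR adjusted p = 0.0113). Pdk4 was at 159, 1222 and 110 CPM in the 3 AAV8-null livers at 16 dpc and between 21.8 and 52.4 CPM in NP livers. In AAV8-p21 livers at 16 dpc it was at 14.4 to 40.9 CPM. The log2 fold change of Pdk4 at 16 dpc against NP was 1.89 without AAV8-null liver 2 at 16 dpc (edgeR adjusted p = 0.0430) and did not pass without NP liver 2 (edgeR adjusted p = 0.0599). One liver stood apart in the AAV8-p21 group at 16 dpc, where the fed-state genes summed to 2604, 3052 and 403 CPM in livers a, b and c and the fasting genes to 7022, 9451 and 18810 CPM. Without liver c 1 of 8 fed-state genes passed, 5 had an unadjusted p under 0.05 and the median was 1.60. Of the fasting genes 5 of 10 then had an unadjusted p under 0.05. Without AAV8-null liver 3 at 16 dpc 7 of 8 fed-state genes were higher, at a median of 0.71. At 8 dpc the 5 fed-state genes with an unadjusted p under 0.05 became 2 without AAV8-null liver 3 or AAV8-p21 liver 1 and 3 without AAV8-null liver 1 or 2. The part of feeding state in the clock values was not tested.

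Hepatocyte markers were abundant in every liver. Their 7 genes summed to 310425 to 437236 CPM in AAV8-null and 273058 to 308542 CPM in AAV8-p21 livers at 16 dpc. Between these groups 0 of 7 passed by edgeR (0.0739% of all genes) and 1 had an unadjusted p under 0.05 (9.77%). These sums did not overlap, but most of each was Alb (means of 356757 and 264304 CPM). Of the 7 markers 4 had a positive log2 fold change for AAV8-p21, with a median of 0.24, and the mean of their log2 levels in a liver ran from 12.25 to 12.56 against 12.36 to 12.44. In the same order, Kupffer cell markers summed to 169 to 267 and 153 to 347 CPM, endothelial markers to 177 to 238 and 170 to 198 CPM, stellate cell markers to 186 to 253 and 212 to 233 CPM, and erythroid markers to 97.7 to 153 and 104 to 140 CPM, all overlapping. Cholangiocyte markers were at 8.41 to 17.3 against 19.6 to 43.0 CPM, T and B cell markers at 0.890 to 1.60 against 1.24 to 3.24 CPM, and neutrophil markers at 5.17 to 28.4 against 2.13 to 3.49 CPM. The neutrophil sum was thus lower and the cholangiocyte sum higher in every AAV8-p21 liver than in any AAV8-null liver at 16 dpc, no marker of any list passed between the groups, and Cd3e, Ms4a1 and Ly6g were among those too low to be tested. At 8 dpc 0 markers passed between the viruses by edgeR. All 3 neutrophil markers tested were lower with AAV8-p21, each at an unadjusted p under 0.05 (5.18% of all genes). All 6 stellate cell markers were higher, at a median log2 fold change of 0.97, with 3 at an unadjusted p under 0.05 and 4 without overlap (10%). Each other list had 0 or 1 at an unadjusted p under 0.05. At 16 dpc against NP in AAV8-null mice, where 6.52% of all genes passed, markers did pass. Neutrophil markers S100a8, S100a9 and Retnlg rose, as 3 of 3 tested (median log2 fold change 3.80), from a summed 0.548 to 1.59 CPM in NP livers. Hbb-bs and Alas2 rose, as 2 of 3 erythroid markers tested, with 0 passing without NP liver 2 or 3 and 1 without AAV8-null liver 1 or 3. Alb and Apoa1 rose and Ttr and Cyp2e1 fell, as 4 of 7 hepatocyte markers, with 2 passing without liver 3 of either group. Lrat fell, as 1 of 6 stellate cell markers, with 0 passing without NP liver 2 or 3 or AAV8-null liver 1 or 2. By edgeR 0 passed in the other 4 lists. Their part in the clock values and in the lists above was not tested.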

How the data were processed

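RNA-seq of whole liver was analysed in 15 mice, 3 in each of 5 groups taken from the sample labels. The deposited values are raw counts per protein-coding gene. Per the labels and methods, the authors trimmed reads with cutadapt 1.14, aligned them with HISAT2 2.1.0 to mm10 and counted them with HTSeq 0.12.4. Libraries were stranded, but the strand setting of the counting is not given in the sources used here. The laser-captured samples were not analysed here.

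Counts were tested with edgeR 4.0.16 (quasi-likelihood F-test, TMM, filterByExpr with a minimum count of 10) in R 4.3.3, in one model of the 5 groups with 10 residual degrees of freedom and Benjamini-Hochberg adjustment over 12172 genes. Genes passed at an adjusted p under 0.05. CPM were log2-transformed after adding 0.5. Correlations used 100000 permutations, or exact permutations within groups and on each side of the Arntl gap. Alternatives used DESeq2 1.42.0, other filters and scaling, the compared groups alone, a replicate block and each library left out. Scripts were tested on simulated counts.

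The 10 genes, the gene lists and the tests were chosen with earlier results of these data known. Named were the 10 genes in every liver, listed genes that passed (at most 4 a comparison by fold), Dbp, Ciart, Bhlhe41 and Nfil3 in any case, and the genes with the highest and lowest r with Arntl and the highest with Nr1d1. Values of a further listed gene are not reported here. Mice with the same replicate number are different animals, and same-numbered libraries did not deviate together (mean r 0.0059). No pair of libraries in a group agreed within sampling noise. The labels do not tie replicates to separate dissection days, so p-values measure only the spread between these mice.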

Additional observations from a re-analysis of the deposited data

How the results depend on the processing

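For the count of clock genes that passed, which was 0 in all 9 tests, DESeq2 size factors, a minimum of 10 counts in every library and the added fold threshold left 0. Shares of all genes are printed for edgeR on all livers only, so counts in the alternatives stand without their own share. Without a filter on low counts, 1 gene (Per2) passed for any difference among the 5 groups. DESeq2 on all 15 libraries called 1 for that test (Per2) and 2 for 16 against 8 dpc in AAV8-p21 livers. On the compared groups alone, DESeq2 called 5 there (Arntl, Npas2, Per1, Per2 and Nr1d2), 1 for AAV8-p21 against AAV8-null at 16 dpc (Arntl, adjusted p = 2.37e-07) and 1 at 16 dpc against NP (Per2), and edgeR called 1 for 16 against 8 dpc in AAV8-p21 livers (Per2). With the replicate block, in the 12 numbered libraries, 1 passed at 16 dpc against NP (Per2, adjusted p = 0.0427) and 1 for any difference among 4 groups (Per2, 0.0137), against 0 at 16 dpc against NP in these libraries without the block; the numbers do not pair the mice. No paired analysis was possible for the interaction or for comparisons with AAV8-p21 livers at 16 dpc because their columns carry no usable number.

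With each library left out in turn, 0 to 3 genes passed for any difference among the 5 groups, 0 to 1 at 16 dpc against NP, 0 to 3 at 16 against 8 dpc in AAV8-p21 livers and 0 in the other 6 tests. The libraries behind these calls were NP liver 1 (3 genes among the 5 groups, 1 at 16 dpc against NP), AAV8-p21 liver 3 at 8 dpc (1, Per1, and 3), and liver 3 at 8 dpc and liver 2 at 16 dpc of AAV8-null mice (1 each, Per2). The log2 fold changes of clock genes that were named kept their direction in the alternatives run, from -4.996 to -3.33 for Arntl with p21 against null at 16 dpc with a library left out, but several moved far: Arntl from -3.60 to -0.20 between AAV8-p21 at 16 dpc and NP, Per3 from 2.03 to 4.84 with p21 against null at 16 dpc, from -4.79 to -1.98 at 16 dpc against NP and from 2.28 to 4.49 between the AAV8-p21 stages, Nr1d1 from -2.23 to -0.91 at 16 dpc against NP and Per1 from 1.31 to 2.85 between the AAV8-p21 stages. Leaving out libraries for the genes of other lists, the 1 alternative run for them, was chosen after seeing the data, and gave 3.68 to 5.79 for Dbp, -2.09 to -1.27 for Nfil3 and 0.74 to 1.10 for Bhlhe41 with p21 against null at 16 dpc. For Ciart it gave 3.09 to 3.88, but 9.39 without AAV8-null liver 2, a size that rests on the remaining AAV8-null livers being at 0. For r with Arntl, leaving out the 2 extreme livers gave 0.47 for Clock, -0.55 for Cry2 and 0.62 for Cry1, and deviations from group means gave 0.37 for Clock, -0.46 for Cry2 and 0.059 for Nr1d1. Above the gap in Arntl, r was -0.067 for Clock, -0.35 for Cry2 and 0.31 for Nr1d1. Below it, r was 0.69 for Npas2, 0.61 for Clock, -0.36 for Per1, -0.61 for Per2, -0.72 for Per3, -0.84 for Cry1, -0.16 for Cry2, 0.80 for Nr1d1 and -0.63 for Nr1d2. The cause of these differences was not tested, other than that the split holds fewer livers. Low counts limit Npas2, at 0 to 8 counts in 8 livers.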
